A study of Mus musculus with 12 samples.

Results

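Spinal motor neurons settle into columns, longitudinal groups of cells that project to different targets. The lateral motor column innervates the limbs, the medial motor column the axial muscles, the hypaxial motor column the body wall, and the preganglionic column the autonomic ganglia. Hox proteins and LIM homeodomain proteins divide the columns from one another, and Foxp1 acts with the Hox proteins to set the lateral and preganglionic fates. The 9 genes described here are markers used to tell columns apart: Foxp1, Aldh1a2, Lhx1, Mecom, Zeb2, Nos1, Pou3f1, Nr2f2 and Tshz1. They were chosen by symbol, and all 9 were found among the 30740 symbols of the deposited tables.

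RNA was sequenced from dissociated cells of the ventral spinal cord of mouse embryos (strain CB6F1/J, stage E12.5), sorted on Hb9:GFP, a reporter that marks motor neurons through regulatory sequence of Mnx1 (Hb9). Embryos labelled as knockouts of Arhgap35, the gene of the GTPase-activating protein p190, were set against control littermates, which the titles call wild type and the protocol describes as either wild-type or heterozygous. There were 5 knockout and 5 control libraries of GFP-positive cells, and 1 knockout and 1 control library of GFP-negative cells. Ventral cords were pooled before sorting, and strain and stage were shared by all groups. The labels name no litter for a library, and the p-values rest on the spread between the libraries as they stand, which may in part be technical.

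The labels were first checked on marker genes. Levels are given as CPM, estimated counts scaled to a common library size. Arhgap35 averaged 96.9 ± 7.84 CPM in knockout and 173 ± 25.6 CPM in control GFP-positive cells (SD, n = 5 each), and its libraries did not overlap. The log2 fold change of Arhgap35 was -0.83 with a standard error of 0.0996 (edgeR adjusted p = 0.0240, or 0.162 with replicate number as a block), so a large part of its RNA was still counted in knockout libraries, and protein was not measured. All 8 motor neuron markers, among them Mnx1, Isl1 and the acetylcholine genes Chat and Slc18a3, were higher in GFP-positive than in GFP-negative cells. Mnx1 stood at 230 to 315 CPM in the 10 GFP-positive libraries, against 0.438 CPM in the knockout and 0.508 CPM in the control GFP-negative library. The GFP-negative cells, which the labels also call motor neurons, held almost none of the gene whose regulatory sequence drives the reporter.

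The members lie on 9 different chromosomes of GRCm38, and all are protein-coding in GENCODE M21. Nr2f2 shares chromosome 7 with Arhgap35, at a distance of 53.7 Mb. The table of RefSeq promoters (GRCm38.p6) held windows for 7 of the 9 members, 13 windows in all; Pou3f1 and Tshz1 had no entry. The windows below belong to the members with the largest ratios between the sorts, Aldh1a2 and Nos1, to Foxp1, on which the lateral column depends, and to Zeb2, whose sorts overlapped. They run 5′ to 3′ on the strand of the gene, upstream of a RefSeq start, and were shortened where needed to leave out annotated exons. The Nos1 and Foxp1 windows printed here precede internal starts. They lie inside the annotated spans of these genes, chr5:117781032-117958840 for Nos1 and chr6:98925338-99522721 for Foxp1. Foxp1 had further windows that are not printed. Capitals mark matches, on either strand, to the homeodomain core TAATTA, the E-box CAGATG, the forkhead sequence TGTTTAC, the nuclear receptor half-site AGGTCA, the POU octamer ATGCAAAT or the CCAAT box.
Aldh1a2, chr9:71215539-71215788, plus strand: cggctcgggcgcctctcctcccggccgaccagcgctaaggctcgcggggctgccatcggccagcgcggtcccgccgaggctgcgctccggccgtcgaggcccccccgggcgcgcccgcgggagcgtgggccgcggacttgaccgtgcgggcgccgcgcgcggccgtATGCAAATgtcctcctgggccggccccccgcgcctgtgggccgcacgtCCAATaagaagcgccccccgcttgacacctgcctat
Nos1, chr5:117866589-117866838, plus strand: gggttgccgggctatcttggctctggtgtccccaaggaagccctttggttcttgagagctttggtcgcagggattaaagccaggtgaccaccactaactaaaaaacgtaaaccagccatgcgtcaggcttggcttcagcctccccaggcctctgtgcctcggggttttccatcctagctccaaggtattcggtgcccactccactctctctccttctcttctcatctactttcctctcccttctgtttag
Foxp1, chr6:99266533-99266765, minus strand: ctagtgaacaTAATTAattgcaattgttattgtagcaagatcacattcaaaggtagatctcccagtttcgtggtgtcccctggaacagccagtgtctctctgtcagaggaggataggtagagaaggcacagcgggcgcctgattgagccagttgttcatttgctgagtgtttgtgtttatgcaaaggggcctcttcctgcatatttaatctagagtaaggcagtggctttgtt
Zeb2, chr2:45117443-45117692, minus strand: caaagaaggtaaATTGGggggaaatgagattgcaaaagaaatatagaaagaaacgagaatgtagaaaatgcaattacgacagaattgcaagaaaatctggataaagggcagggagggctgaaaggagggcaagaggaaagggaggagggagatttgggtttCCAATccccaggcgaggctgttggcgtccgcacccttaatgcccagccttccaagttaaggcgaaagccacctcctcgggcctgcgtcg

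The octamer, the sequence that POU factors such as Pou3f1 bind, lay 84 bases before the start of Aldh1a2, and 1.60% of all 32851 windows of 250 bases held it. The homeodomain core lay 240 bases before this start of Foxp1, and 4.84% of all windows held it. The CCAAT box, a general promoter element, was in 6 of the 13 member windows, each of another gene, and in 33.8% of all windows. The E-box and the half-site were found in Mecom windows alone among the members, against 14.4% of all windows for the E-box and 4607 of the 32851 for the half-site, and the forkhead sequence in no member's window, against 3.17%. The octamer and the CCAAT box were added to the search after the Aldh1a2 window had been read. These matches describe letters and no binding.

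Measured as deposited TPM, which allows for transcript length, the members covered a wide range in GFP-positive cells. Over the 10 libraries Aldh1a2 was highest at a mean of 263 TPM, followed by Nr2f2 at 181 TPM, Foxp1 at 141 TPM and Tshz1 at 86.5 TPM. Mecom (52.9 TPM), Pou3f1 (49.4 TPM), Zeb2 (44.4 TPM) and Lhx1 (41.0 TPM) had ranges that overlapped from each to the next, so their order is not beyond the spread. Nos1 was lowest at 16.3 TPM, and its highest library (25.2 TPM) lay above the lowest library of Lhx1 (19.5 TPM). The ranges of Aldh1a2 and Nr2f2 and those of Nr2f2 and Foxp1 overlapped as well, and Foxp1, Tshz1 and Mecom stood apart from one another. In the 2 GFP-negative libraries the order was another: Lhx1 came first at 237 TPM and Tshz1 second at 142 TPM, and Aldh1a2 (2.32 TPM) and Nos1 (1.24 TPM) came last.

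**Figure D1:**
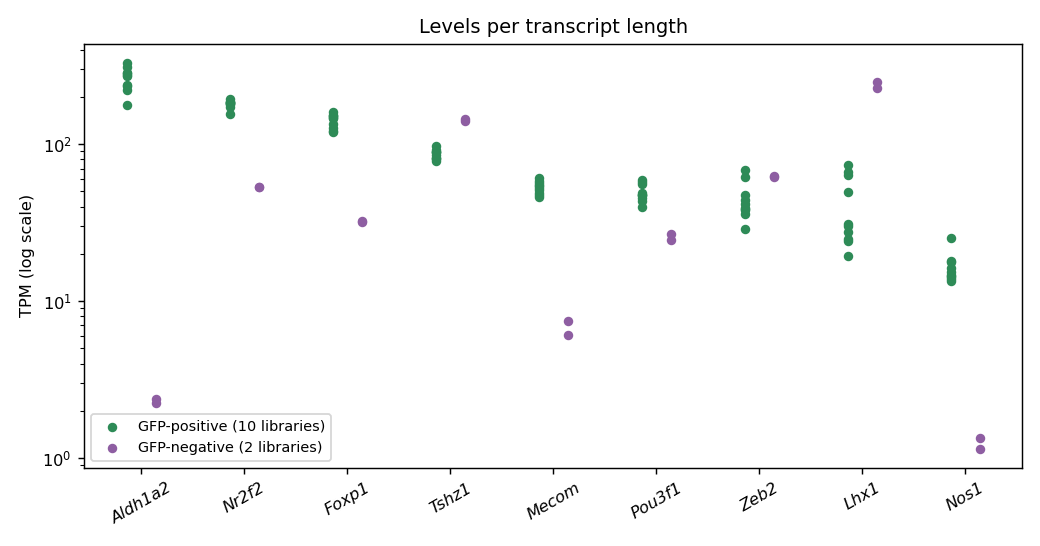
Deposited TPM of the 9 genes on a log axis, 1 point per library, with GFP-positive libraries left of GFP-negative ones and genes ordered by their GFP-positive mean. Aldh1a2 leads in GFP-positive cells at 178 to 328 TPM and is near the bottom in GFP-negative cells at 2.26 and 2.38 TPM, while Lhx1 leads in GFP-negative cells.

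The comparison of GFP-positive with GFP-negative cells shows which column genes had higher or lower levels in the reporter-positive population. Aldh1a2, Nos1, Mecom, Foxp1, Nr2f2 and Pou3f1 were higher in GFP-positive cells, by 111-fold for Aldh1a2 down to 1.89-fold for Pou3f1, and Lhx1 and Tshz1 were lower. Zeb2 did not pass the test. In edgeR's quasi-likelihood fit over 19763 genes, with genotype as a covariate, 6 of the 9 were called higher, where 30.1% of all genes tested were, and 2 were called lower, where 31.8% were, at an adjusted p of 0.05. Together these were 8 of 9 members, against 61.9% of all genes in either direction. At least 2-fold higher were 5 members, against 14.6% of all genes, and at least 2-fold lower was 1, Lhx1, against 11.3%. The median log2 fold change was 1.72 over the members and 0.018 over all genes. With only 2 GFP-negative libraries, the spread in this fit comes almost wholly from GFP-positive cells. In bulk samples, fewer cells of a type and less RNA per cell cannot be told apart.

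**Figure D2:**
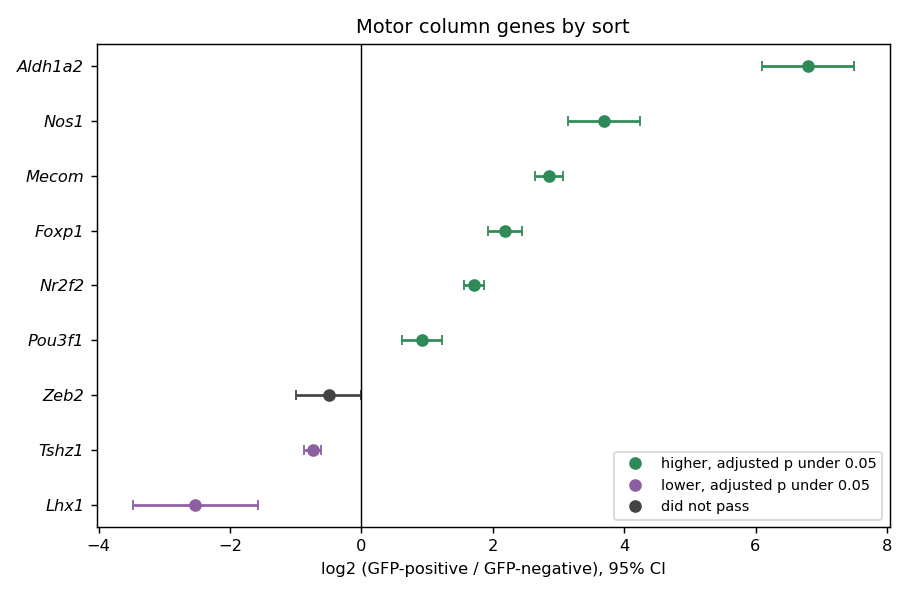
Fitted log2 fold change of GFP-positive over GFP-negative cells for each gene, with 95% confidence intervals from edgeR (12 libraries, genotype as a covariate). Aldh1a2 has the largest fold change at 6.79, Lhx1 the lowest at -2.52, and the interval of Zeb2 ends just below 0.

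Among markers of the lateral column, Aldh1a2 encodes the retinaldehyde dehydrogenase by which these neurons make retinoic acid. It stood at 235, 285, 281, 266 and 304 CPM in knockout replicates 1 to 5 and at 217, 175, 332, 233 and 274 CPM in the control replicates. The GFP-negative libraries stood at 2.41 CPM (knockout) and 2.27 CPM (control), which is 0.900% of the GFP-positive mean. Every GFP-positive library was thus far above both GFP-negative ones, and the log2 fold change was 6.79 with a standard error of 0.316 (edgeR adjusted p = 1.30e-08). Its control libraries spread more widely than its knockout libraries, with control replicate 2 lowest and control replicate 3 highest of all 10.

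Foxp1, the Hox accessory factor of lateral and preganglionic neurons, stood at 263, 305, 321, 301 and 321 CPM in knockout replicates 1 to 5. The control replicates stood at 254, 242, 324, 269 and 307 CPM. GFP-negative cells held 62.8 CPM in the knockout and 64.6 CPM in the control library, so these cells kept 21.9% of the GFP-positive level, a share much above that of Aldh1a2. The log2 fold change between the sorts was 2.19 with a standard error of 0.121 (edgeR adjusted p = 1.12e-08). Foxp1 and Aldh1a2 were ordered alike over the control libraries: control replicate 2 was lowest for both and control replicate 3 highest for both. Knockout replicate 1 was the lowest knockout library for both, and the order of the other knockout libraries differed.

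Lhx1, a LIM homeodomain factor that marks the lateral division of the lateral column and steers its axons into the dorsal limb, is also made by several classes of spinal interneurons. It stood at 69.1, 47.4, 39.2, 85.9 and 33.7 CPM in knockout replicates 1 to 5 and at 91.7, 41.2, 37.6, 106 and 29.5 CPM in the control replicates. GFP-negative cells held 319 CPM in the knockout and 351 CPM in the control library, 5.76 times the GFP-positive mean. No GFP-positive library reached either GFP-negative one (log2 fold change -2.52 with a standard error of 0.423, edgeR adjusted p = 0.000459).

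Mecom encodes a zinc finger factor that has been used as a marker of medial column neurons. It stood at 92.0, 81.0, 102, 89.3 and 89.2 CPM in knockout replicates 1 to 5 and at 82.1, 92.3, 95.7, 81.3 and 90.3 CPM in the control replicates. GFP-negative cells held 11.9 CPM in the knockout and 12.8 CPM in the control library. The groups of the 2 sorts were well apart, and Mecom had the smallest adjusted p of the 9 genes (log2 fold change 2.85 with a standard error of 0.0975, edgeR adjusted p = 8.83e-11).

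Nos1 encodes neuronal nitric oxide synthase, a marker of preganglionic neurons. Knockout replicates 1 to 5 stood at 63.5, 63.3, 62.2, 58.9 and 69.0 CPM, and the control replicates at 61.2, 108, 57.9, 77.3 and 77.4 CPM. The knockout libraries lay close together, and control replicate 2 stood above all others. GFP-negative cells held 5.08 CPM in the knockout and 5.66 CPM in the control library, 7.69% of the GFP-positive mean (log2 fold change 3.70 with a standard error of 0.249, edgeR adjusted p = 1.66e-07).

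Zeb2, a zinc finger repressor used here as a preganglionic marker, is also made by neural crest cells and microglia. It stood at 86.0, 71.3, 72.3, 106 and 68.3 CPM in knockout replicates 1 to 5 and at 74.7, 78.9, 56.9, 117 and 67.8 CPM in the control replicates, against 115 CPM in the knockout and 111 CPM in the control GFP-negative library. Control replicate 4 alone reached the GFP-negative level, so Zeb2 was the 1 member whose sorts overlapped. Libraries of 8 of the 9 members did not overlap between the sorts, where 60.7% of all genes tested did not. The log2 fold change of Zeb2 was -0.50 with a standard error of 0.223 (edgeR adjusted p = 0.0757). When replicate number entered the fit as a block, Zeb2 passed (log2 fold change -0.49, edgeR adjusted p = 0.00741), and 9 of 9 members were called, against 55.6% of all genes. Both GFP-negative libraries carry number 1, so the block compares the sorts within that number alone. The pairing by number was checked in GFP-positive libraries only. Zeb2 also passed when control replicate 4 was left out (log2 fold change -0.59, edgeR adjusted p = 0.00781) or knockout replicate 4 (-0.54, edgeR adjusted p = 0.0428).

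The other members are transcription factors that mark pools or groups less tied to 1 column. Pou3f1, the POU factor also called Scip or Oct6 and known from phrenic and some limb motor neurons, stood at 56.9, 63.2, 73.5, 62.0 and 62.2 CPM in knockout replicates 1 to 5 and at 76.8, 52.3, 77.4, 59.6 and 64.9 CPM in the control replicates. GFP-negative cells held 32.9 CPM in the knockout and 35.7 CPM in the control library, roughly 52.9% of the GFP-positive mean (log2 fold change 0.92 with a standard error of 0.139, edgeR adjusted p = 9.32e-05). Its libraries did not overlap between the sorts, but this was the smallest called difference on the higher side.

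Nr2f2, the orphan nuclear receptor COUP-TFII, had the smallest SD of log2 CPM of the members over the 10 GFP-positive libraries (0.0874), and Lhx1 the largest (0.666). Knockout replicates 1 to 5 stood at 329, 322, 358, 337 and 329 CPM, and the control replicates at 332, 285, 347, 334 and 342 CPM. GFP-negative cells held 100.8 CPM in the knockout and 100.6 CPM in the control library (log2 fold change 1.72 with a standard error of 0.0698, edgeR adjusted p = 3.56e-10). Its exons share 643 bases with the antisense transcript B130024G19Rik, and the library kit does not mark strand. That transcript was estimated at 17.0 to 28.8 CPM in GFP-positive cells, 5.12 to 8.29% of the Nr2f2 level. For the other members the bases shared with exons of any other gene made up 0 to 8.57% of the exonic bases, with Pou3f1 at the top. Pou3f1 shares 330 bases with the antisense transcript Gm2164, and Zeb2 shares 653 with the antisense transcript Zeb2os. Foxp1 shares 300 bases with the protein-coding gene Gm20696 on the same strand. Levels of these overlapping transcripts were not examined.

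Tshz1, a teashirt zinc finger factor, was the second member that was lower in GFP-positive cells. It stood at 203, 204, 183, 197 and 191 CPM in knockout replicates 1 to 5 and at 215, 176, 188, 202 and 182 CPM in the control replicates. The knockout GFP-negative library held 320 CPM and the control one 329 CPM, above every GFP-positive library. The log2 fold change was -0.74 with a standard error of 0.0607 (edgeR adjusted p = 1.57e-07).

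**Figure D3:**
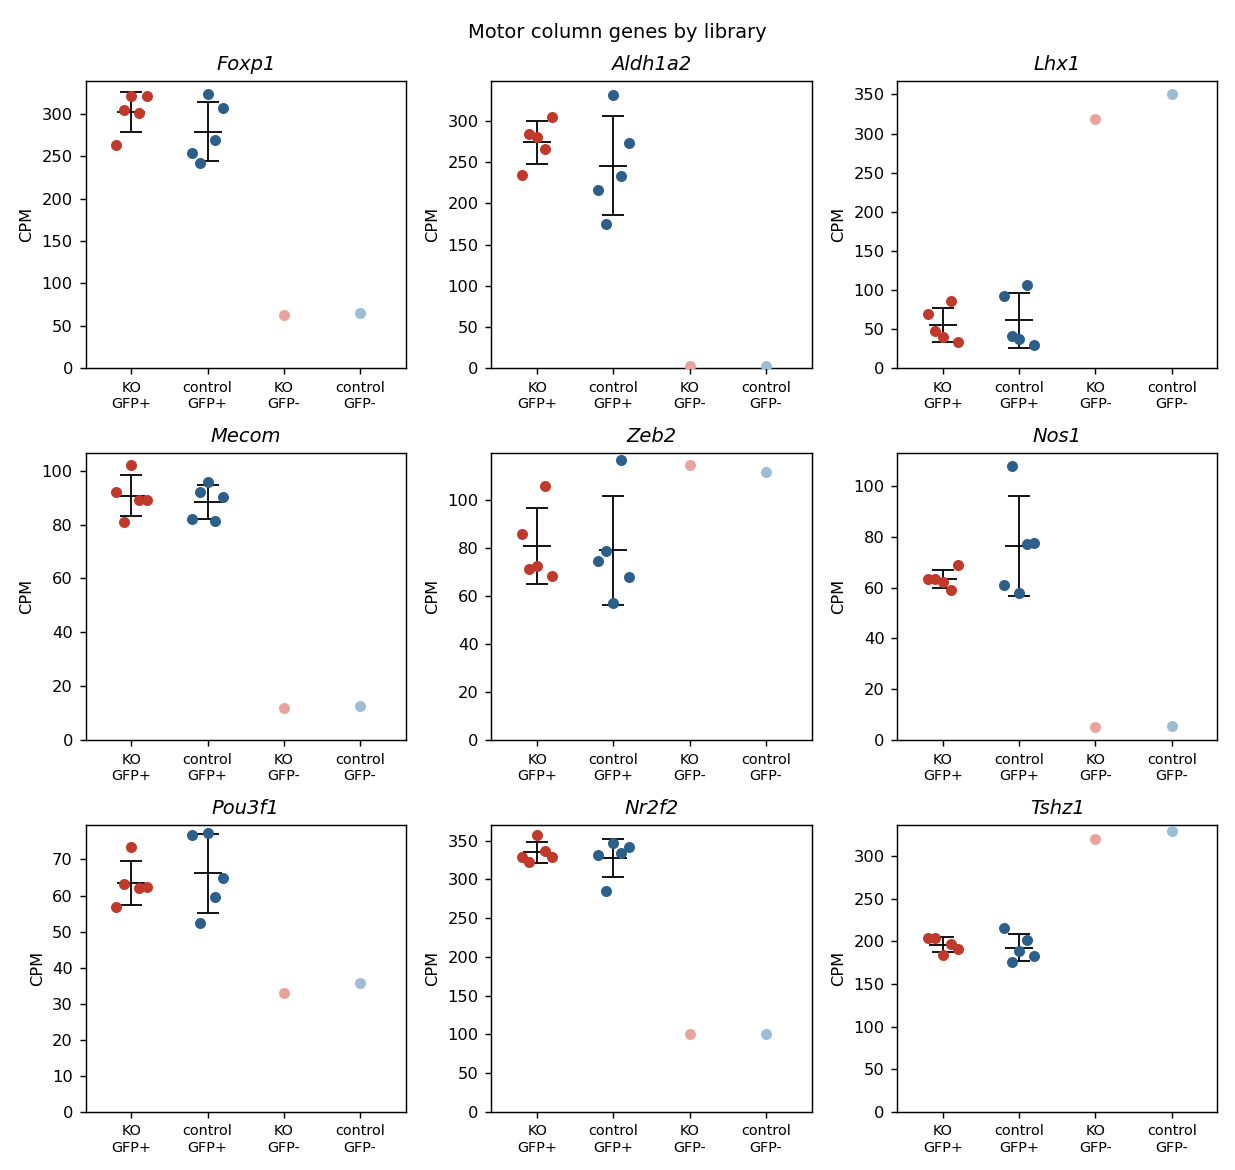
CPM of each gene in every library (points, 1 per library), with the mean and SD of the 5 knockout and 5 control GFP-positive libraries as black bars; GFP-negative groups hold 1 library each, and every axis starts at 0. Knockout and control points overlap in all 9 panels, and the GFP-negative points lie below the GFP-positive ones in 6 panels and above them in those of Lhx1 and Tshz1.

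Knockout and control libraries of GFP-positive cells were compared to see whether the column markers differed without Arhgap35. No member was called: 0 of 9 passed, where 0.0343% of the 17487 genes tested did, and the edgeR adjusted p was 0.9999 for every member. Before adjustment, 0 members had a p under 0.05, where 2.14% of all genes did, and DESeq2 and limma-voom called 0 members too. The knockout estimate was above control for Foxp1, Aldh1a2, Mecom, Zeb2, Nr2f2 and Tshz1 and below it for Lhx1, Nos1 and Pou3f1. The median log2 fold change was 0.030 over the members and -0.0016 over all genes. In no member did the 5 knockout values all lie on 1 side of the 5 control values, as 0.538% of all genes did.

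The limits on a change, taken from the fit without the replicate block, differed between the members. The 95% confidence interval lay within 1.5-fold of no change for 7 of the 9, where 98.8% of the 6498 genes of similar abundance (average log2 CPM 5 or more) did. The exceptions were Lhx1 and Nos1. Tshz1 had a log2 fold change of 0.023 with an interval of -0.095 to 0.14, Nr2f2 one of 0.030 (-0.082 to 0.14) and Mecom one of 0.039 (-0.097 to 0.18). Foxp1 averaged 302 ± 23.6 CPM in knockout and 279 ± 34.8 CPM in control cells (SD, n = 5 each), with a log2 fold change of 0.12 and an interval of -0.071 to 0.30. Pou3f1 had a log2 fold change of -0.058 (-0.30 to 0.18) and Zeb2 one of 0.034 (-0.42 to 0.48).

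Aldh1a2 and Nos1 differed most in the direction of their estimates. Aldh1a2 averaged 274 ± 25.9 CPM in knockout and 246 ± 59.8 CPM in control cells (SD, n = 5 each), with a log2 fold change of 0.16 and an interval of -0.19 to 0.51. Nos1 averaged 63.4 ± 3.65 CPM in knockout and 76.3 ± 19.8 CPM in control cells (SD, n = 5 each), with a log2 fold change of -0.27 and an interval of -0.61 to 0.073. Single control libraries moved both estimates. Control replicate 2 was lowest of the 10 libraries for Aldh1a2, Foxp1, Pou3f1, Nr2f2 and Tshz1 and highest for Nos1. Without it the log2 fold change was 0.057 for Aldh1a2, 0.069 for Foxp1 and -0.11 for Nos1. Without control replicate 3 it was 0.29 for Aldh1a2, 0.17 for Foxp1 and -0.35 for Nos1.

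In the fit without the replicate block, Lhx1 was bounded least. It averaged 55.1 ± 21.9 CPM in knockout and 61.2 ± 35.0 CPM in control cells (SD, n = 5 each), and its log2 fold change of -0.15 had an interval of -1.15 to 0.84, whose lower end is a 2.21-fold lower level. A block for replicate number gave -0.070 on the log2 scale, and the standard error was 0.115, against 0.435 without the block (edgeR adjusted p = 0.987). With the block, Nos1 (0.152) and Aldh1a2 (0.145) had larger standard errors than Lhx1, so Lhx1 was no longer the least bounded. The same block brought the standard error of Zeb2 to 0.0814, against 0.199 without it, and that of Foxp1 to 0.0455, against 0.0845. Under the block 0 of 9 members were called, where 0.0286% of all genes were. Foxp1 had an unadjusted p of 0.0282 there (log2 fold change 0.12, edgeR adjusted p = 0.920) and was higher in the knockout library of 4 of 5 numbers, and 5.08% of all genes had an unadjusted p under 0.05.

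**Figure D4:**
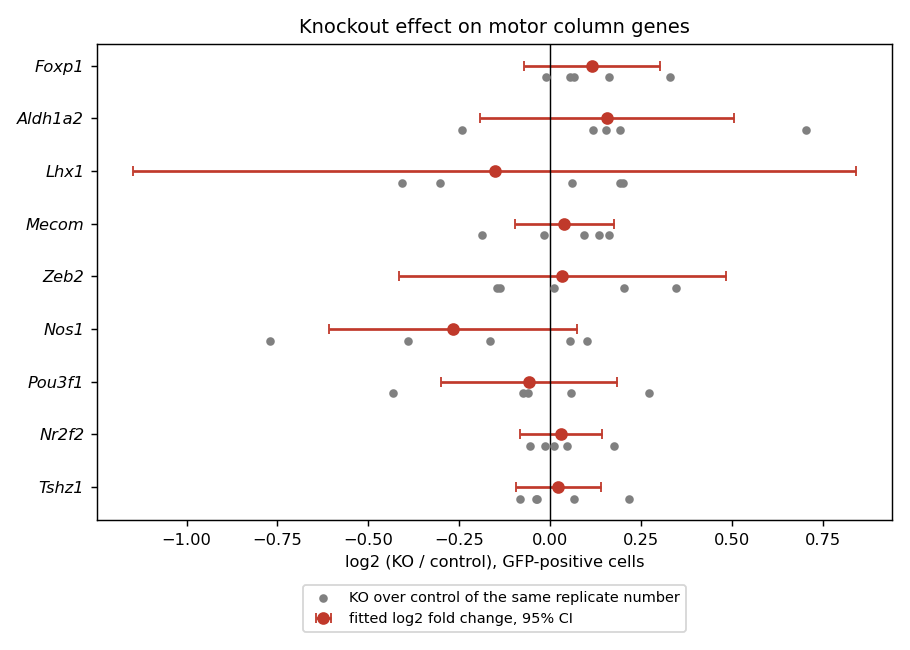
Fitted log2 fold change of knockout over control GFP-positive cells with 95% confidence intervals from edgeR (red, 5 libraries each), and the log2 ratio of the knockout to the control library of the same replicate number (grey, 5 per gene). Every interval, fitted without the replicate block, includes 0, and that of Lhx1 is the widest. The lowest grey point of Nos1 and the highest of Aldh1a2 both belong to replicate number 2.

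The share of the spread that lay between replicate numbers differed between the members. With only 10 libraries in 5 numbers, a sizeable share falls between numbers even where same-numbered libraries are no more alike than others. The lower shares below therefore show no likeness within numbers. Replicate number accounted for 95.7% of the sum of squares of log2 CPM of Lhx1 over the 10 libraries and for 88.4% of that of Zeb2, against a median of 65.8% and a 90th percentile of 89.3% over 13523 genes. It accounted for 73.2% for Nr2f2 and 67.3% for Foxp1, for 51.9 to 58.4% for Aldh1a2, Pou3f1, Mecom and Tshz1, and for 41.2% for Nos1. Of the members, Lhx1 alone was above that 90th percentile. Pair means of Lhx1 were 80.4, 44.3, 38.4, 95.9 and 31.6 CPM for numbers 1 to 5, a range of 3.03-fold, and those of Zeb2 were 80.3, 75.1, 64.6, 111 and 68.0 CPM. Number 4 was highest for both genes. Number 1 was also high for Lhx1, and for Zeb2 it lay close to number 2.

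Markers of interneurons moved with Lhx1. The summed level of all 15 interneuron markers of the list, none of which was at 0 in all GFP-positive libraries, was 145, 70.0, 39.2, 139 and 34.1 CPM in knockout replicates 1 to 5. It was 214, 87.8, 33.6, 213 and 30.3 CPM in the control replicates, and 997 CPM in the knockout and 1102 CPM in the control GFP-negative library. Numbers 1 and 4 were again the highest in both genotypes, and in both of these the knockout library was below its control, as it was for Lhx1. In number 2 the knockout library was below its control for the marker sum but above it for Lhx1. In the remaining numbers it was above its control for both. Set against the GFP-negative library of the same genotype, the marker sum was 3.42 to 14.5% in knockout and 2.75 to 19.4% in control libraries. Lhx1 was 10.6 to 26.9% in knockout and 8.41 to 30.2% in control libraries, above the marker sum in all 10. Between the genotypes 0 of the 15 markers were called, with a median log2 fold change of -0.44, and under the block 5 of 15 had an unadjusted p under 0.05, where 5.08% of all genes did. The part of these cells in the levels of Lhx1 and Zeb2 was not tested.

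**Figure D5:**
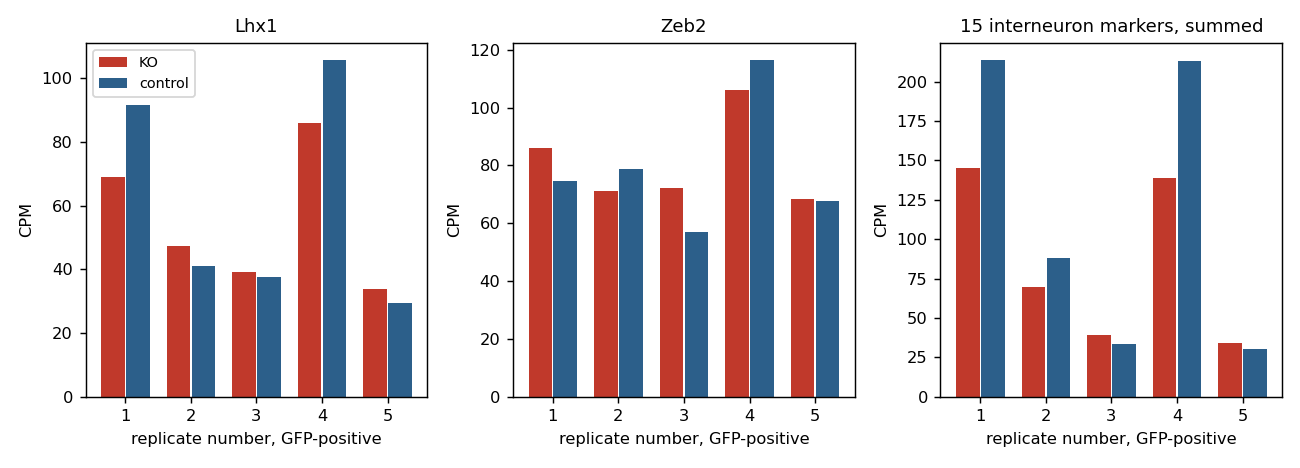
CPM of Lhx1, of Zeb2 and of the sum of 15 interneuron markers in the GFP-positive libraries, by replicate number, with the knockout bar left of the control bar. Numbers 1 and 4 are highest for Lhx1 and for the marker sum, and number 4 stands out for Zeb2.

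Markers of other cell types that make some of these genes differed in level. Each of 8 microglial markers averaged under 1 CPM in GFP-positive cells, and their sum ran from 1.96 to 4.57 CPM in knockout and from 1.34 to 4.04 CPM in control libraries. Endothelial markers, of interest because vessels make Nr2f2 and Zeb2, summed to 5.37 to 18.4 CPM in knockout and 4.18 to 8.88 CPM in control libraries. Knockout replicate 2 was the highest, above the 15.5 CPM of the knockout and the 11.7 CPM of the control GFP-negative library, and the sum was higher in the knockout library of all 5 numbers. Of the 7 endothelial genes tested, 1 had an unadjusted p under 0.05 between the genotypes, where 2.14% of all genes did. Under the block 4 did, where 5.08% of all genes did. Either way 0 were called, and the median log2 fold change without the block was 0.61. The part of endothelial cells in the levels of Nr2f2 and Zeb2 was not tested. Neural crest and Schwann markers summed to 16.5 to 24.9 CPM in knockout and 19.4 to 28.3 CPM in control libraries. The knockout GFP-negative library held 28.5 CPM and the control one 31.2 CPM. These markers differed: Foxd3 averaged 12.3 CPM in GFP-positive cells, against 14.1 CPM in the knockout and 17.1 CPM in the control GFP-negative library. Sox10 averaged 0.430 CPM, against 5.44 CPM in the knockout and 5.59 CPM in the control GFP-negative library. Sensory markers summed to 14.3 to 35.1 CPM in knockout and 13.9 to 36.9 CPM in control libraries. For mesenchymal markers the sums were 20.1 to 39.7 CPM in knockout and 18.9 to 27.4 CPM in control libraries, and for erythroid markers 2.55 to 28.1 CPM in knockout and 2.97 to 9.99 CPM in control libraries. Progenitor and glial markers summed to 428 to 533 CPM in knockout and 415 to 560 CPM in control libraries, against 2400.5 CPM in the knockout and 2147 CPM in the control GFP-negative library. Vim made up most of the GFP-positive sum at a mean of 355 CPM, against 920 CPM in the knockout and 861 CPM in the control GFP-negative library. Sox2 averaged 6.55 CPM, against 167 CPM in the knockout and 161 CPM in the control GFP-negative library. No gene of these lists was called between the genotypes.

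In the GFP-negative cells the log2 ratio of the knockout to the control library ran from -0.16 for Nos1 to 0.086 for Aldh1a2, with 1 library each and so no spread of its own. The difference between the knockout effects in GFP-negative and GFP-positive cells was tested in a fit with 4 group means, where the spread of each lone library is taken from the groups with replicates. It was called for 0 of 9 members, where 0.0253% of all genes were, and 0 had an unadjusted p under 0.05, where 1.78% of all genes did. With the block 0 were called again, against 0.00506% of all genes. The difference ran from -0.16 for Foxp1 to 0.11 for Nos1 (edgeR adjusted p = 0.99997 for each). The intervals were wide, reaching from -2.36 to 2.39 on the log2 scale for Lhx1 and from -0.31 to 0.25 for Nr2f2.

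Aldh1a2 is 1 step of the retinoid pathway, in which Rdh10 makes retinaldehyde, retinaldehyde dehydrogenases make retinoic acid, RAR and RXR receptors respond to it and Cyp26 enzymes break it down. Of 18 other genes of this pathway 14 were tested, and between the sorts 8 were higher and 5 lower in GFP-positive cells, where 30.1% and 31.8% of all genes were. Rdh10 stood at 22.2 ± 1.23 CPM in the 10 GFP-positive libraries, against 9.06 CPM in the knockout and 8.81 CPM in the control GFP-negative library. Cyp26b1 stood at 40.1 ± 4.78 CPM, against 6.50 CPM in the knockout and 5.86 CPM in the control GFP-negative library, and the receptor Rxrg at 33.2 ± 3.20 CPM, against 2.23 CPM in the knockout and 2.03 CPM in the control GFP-negative library (SD, n = 10). Dhrs3, a reductase that turns retinaldehyde back to retinol, was lower in GFP-positive cells at 3.35 ± 0.439 CPM (SD, n = 10), against 20.4 CPM in the knockout and 19.9 CPM in the control GFP-negative library. The 4 genes had log2 fold changes of 1.31 (Rdh10), 2.70 (Cyp26b1), 3.96 (Rxrg) and -2.59 (Dhrs3), each with an edgeR adjusted p of at most 8.65e-09. Between the genotypes 0 of the 14 were called, with log2 fold changes of -0.19 to 0.075. Those with the smallest p were Rxrb (-0.036) and Crabp1 (-0.19), which binds retinoic acid in the cytoplasm.

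The LIM and Hox factors that divide the columns with Foxp1 and Lhx1 were all tested, 16 of 16. Between the sorts 12 were higher and 4 lower in GFP-positive cells, set against the same 30.1% and 31.8%. Among those with the smallest p were Mnx1 (log2 fold change 9.04), Isl2 (8.43) and Isl1 (3.56), each with an edgeR adjusted p of at most 2.62e-09. Between the genotypes 0 were called, with log2 fold changes of -0.19 to 0.18, and Hoxc8 (0.13) was among those with the smallest p. Under the block 4 of the 16 had an unadjusted p under 0.05, where 5.08% of all genes did, and 0 were called. Of 20 further column and pool markers and paralogues of the members, 8 were higher and 9 lower in GFP-positive cells, set against 30.1% and 31.8% of all genes. The progenitor and motor neuron factor Nkx6-1 had a log2 fold change of 2.22, the guidance receptor Epha4, which acts downstream of Lhx1 in lateral column axons, one of 1.22, the ligand Efnb1 one of -2.18, and Pou3f2, a paralogue of Pou3f1, one of -1.96. Between the genotypes 0 of 20 were called, with Ephb1 (-0.10) and Zeb1 (0.072), a paralogue of Zeb2, at the smallest p.

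For each member, the genes whose log2 CPM followed it most closely over the 10 GFP-positive libraries were looked up among 11783 named genes. The closest to Foxp1 were Chsy3 (Pearson's r = 0.987) and Sema3d (0.939), to Aldh1a2 Rnf13 (0.940) and Tbx3 (0.936), and to Lhx1 Robo3 (0.986) and Scrt1 (0.975). Zeb2 was followed by Vgll3 (0.963) and Cbfa2t3 (0.956), Nos1 by Panx1 (0.907) and Kitl (0.895), and Mecom by Xrn1 (0.908) and Erlec1 (0.884). Pou3f1 was followed by Pafah1b3 (0.979) and Ddx54 (0.977), Nr2f2 by Plcd1 (0.963) and Smarcd2 (0.945), and Tshz1 by Enkd1 (0.948) and Tmem129 (0.936). Each r is the highest among many candidates, and the 10 libraries fall into 5 number pairs and are not independent, so these values are a description without a test. Robo3, a receptor of commissural axons, stood at 90.7, 41.8, 25.1, 110 and 13.3 CPM in knockout replicates 1 to 5 and at 190, 36.5, 21.1, 208 and 13.0 CPM in the control replicates. Because Robo3 was picked for its r with Lhx1, its high levels in the same numbers 1 and 4 follow from that choice. Robo3 stood at 1045 CPM in the knockout and 1030 CPM in the control GFP-negative library.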

How the data were processed

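The authors deposited estimated counts per gene symbol (expected counts, not normalized between libraries; 39.2% are whole) and TPM; per the submitters' processing notes kallisto (version not given) and mm10 were used, and the sources used here do not say how transcripts were joined to symbols. Deposited TPM columns sum to 974800 to 1018240, so they were rescaled in a way not stated. All 12 columns of each table matched a sample by title. Estimated counts were rounded. After filterByExpr and TMM scaling, edgeR 4.0.16 gave the tests (R 4.3.3; robust quasi-likelihood F-test, Benjamini-Hochberg adjustment over all genes tested, threshold 0.05); the fit was tested on simulated data. Fold changes are log2 values, and log2 CPM used a prior count of 2. Library totals ran from 23.7 to 33.8 M estimated counts, and 3 counts made 0.0891 to 0.127 CPM. Positions are from GENCODE M21. Replicate numbers pair the GFP-positive libraries by the data: residuals of same-numbered libraries correlated at r of 0.209 to 0.505, against -0.427 to 0.189 for others. The members and lists were chosen with earlier results of these data known. Named from each list were up to 4 called genes, or 2 where none was called, with the smallest p; for each member, the 2 genes with the highest r among tested genes whose average log2 CPM was 1 or more. One gene that this rule names is not reported here. Robo3 levels were added after they were seen. Alternatives were other scaling, filters, DESeq2 1.42.0, limma 3.58.1 (voom, or log2 TPM with pseudocounts of 1 and 0.1), the block, each library left out, single genotypes, no genotype term and all 12 libraries.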

Additional observations from a re-analysis of the deposited data

Results flagged for a closer look

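The level of Nr2f2 in control GFP-positive replicate 2, 285 CPM, was set apart from the other 4 control libraries by a gap of 0.759 of the group's range, more than Dixon's critical value for 5 samples. The other control libraries stood at 332 to 347 CPM and the knockout libraries at 322 to 358 CPM. Of the 18 groups tested, 1 was flagged, and chance flags about 1 in 20. Without control replicate 2 the log2 fold change of Nr2f2 between the genotypes was -0.016, against 0.030 with it, and neither passed edgeR's test (adjusted p = 0.999 and 0.9999).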

How the results depend on the processing

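In every alternative run, left-out libraries included, 0 members were called between the genotypes. In the difference between the knockout effects in GFP-negative and GFP-positive cells, 0 were called as well. Between GFP-positive and GFP-negative cells 8 or 9 members were called, with Zeb2 the 1 gene that changed. Over all genes, 6 were called between the genotypes, against 11 with DESeq2, 0 on log2 TPM with either pseudocount, and 0 to 8 when 1 library was left out. The difference between the knockout effects called 5 genes, against 2 with DESeq2, 0 with limma-voom and 0 on log2 TPM with a pseudocount of 1. It called 1 with the replicate block and 0 to 6 when 1 library was left out. The replicate block changed no member's call other than that of Zeb2 between the sorts. Estimates near 0 changed sign. For the difference between the knockout effects, Zeb2 (0.0052) gave -0.0028 without a filter. With limma-voom, log2 TPM with pseudocounts of 1 and 0.1 and the block, Zeb2 gave -0.024, -0.087, -0.090 and -0.013. In the same order Lhx1 (0.015) gave -0.079, -0.10, -0.10 and -0.066. Leaving out 1 library at a time, the log2 fold change between the genotypes ran from 0.069 to 0.17 for Foxp1, 0.057 to 0.29 for Aldh1a2, -0.35 to -0.11 for Nos1, -0.37 to 0.14 for Lhx1, -0.0066 to 0.077 for Mecom, -0.085 to 0.22 for Zeb2, -0.13 to 0.0033 for Pou3f1, -0.016 to 0.051 for Nr2f2 and -0.0085 to 0.065 for Tshz1. The difference between the knockout effects ran from -0.20 to 0.030 for Aldh1a2, -0.27 to 0.23 for Lhx1 and -0.18 to 0.12 for Zeb2. It ran from -0.046 to 0.20 for Nos1, -0.12 to 0.015 for Pou3f1 and -0.050 to 0.018 for Nr2f2. The cause of these changes was not tested. With 1 GFP-negative library per genotype, that difference is the least certain result.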
